A study of Saccharomyces cerevisiae with 22 samples.

Results

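The genes described here are the 6 genes of biotin synthesis, uptake and ligation in *Saccharomyces cerevisiae*, *VHT1*, *BIO5*, *BIO3*, *BIO4*, *BIO2* and *BPL1*. They were found by symbol in the annotation of the array probes, and all 6 were measured, each by 1 probe printed in 2 spots, among 6373 genes and other transcripts. By the annotation, *VHT1* (YGR065C) and *BIO2* (YGR286C) lie on chromosome VII, *BPL1* (YDL141W) on chromosome IV, and *BIO5* (YNR056C), *BIO4* (YNR057C) and *BIO3* (YNR058W) side by side on chromosome XIV. Biotin is the cofactor of carboxylases such as acetyl-CoA carboxylase and pyruvate carboxylase. Yeast lacks the first steps of the pathway, so it takes up biotin through Vht1p, a plasma membrane symporter, or makes it from vitamers such as 7-keto-8-aminopelargonic acid, which Bio5p imports. Bio3p is the aminotransferase and Bio4p the dethiobiotin synthetase of the pathway. Bio2p, biotin synthase, inserts sulfur with the help of iron-sulfur clusters. Bpl1p is the ligase that couples biotin to its target proteins.

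The 22 arrays compared RNA of a mutant with RNA of a common wild type reference and make 12 profiles. The strains grown in YPD, a rich medium of yeast extract, peptone and glucose, were *rpb1-S2A*, in which alanine replaces Ser2 in all repeats at the C-terminal end of the largest RNA polymerase II subunit, and *ctk1*Δ, which lacks the Ser2 kinase. The strains grown in synthetic complete (SC) medium were *lrp1*Δ and *rrp6*Δ, which lack factors of the nuclear exosome, *ctk1*Δ, the ts allele *sen1-1* of a helicase of early termination, the alleles *pcf11-2* and *pcf11-ts2* of a cleavage factor, *rtt103*Δ, *set2*Δ (a histone methyltransferase), and *rco1*Δ and *eaf3*Δ, which lack subunits of the Rpd3S deacetylase. By the study, *sen1-1* and both *pcf11* alleles are temperature-sensitive (ts) and were grown at the same, permissive temperature as the other SC strains. It states that most ts strains already lose part of their function there. Each profile had replicates a and b, with the mutant in Cy3 and in Cy5, except *pcf11-2* (b) and *pcf11-ts2* (a), which had 1 array each. All strains are labelled BY4742, whereas the strain list of the study derives *sen1-1*, both *pcf11* alleles and *rpb1-S2A* from BY4741, of the other mating type. The a-specific receptor gene *STE2* had log2 ratios of 3.84 to 4.61 in these 4 profiles and −0.08 to 0.20 in the other 8. *LYS2*, which is deleted in BY4742, had 2.06 in *ctk1*Δ in YPD, 3.13 in *ctk1*Δ in SC and 2.71 to 3.02 in the same 4 profiles, against −0.19 to 0.06 in the other 6 deletions, so *ctk1*Δ went against its labelled background in this marker.

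All values are log2 ratios of mutant over wild type reference. A gene is said to rise or fall where its limma p, adjusted by Benjamini-Hochberg over all 6373 features, was under 0.05 and its fold change was over 1.7. The common reference counts as 1 control sample, so its own spread is left out of every ratio. The labels give high-throughput RNA extraction for the reference of *sen1-1*, both *pcf11* alleles and the YPD profiles, and standard extraction for the others. In a difference between profiles the reference cancels only where this extraction is shared. The medium of the reference culture is not given in the sources used here. In the 8 deletion profiles the deleted gene had log2 ratios of −4.06 to −2.46. The mutant channel had median signals of 272 to 1541, and the 6 biotin genes exceeded background in both channels of all 22 arrays with no saturated spot. Precision is limited by the number of arrays.

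The biotin genes split by medium. In the YPD profiles 10 of 12 gene and profile pairs fell and 0 rose, where 3.93% of all feature and profile pairs fell and 7.01% rose. In the 8 SC profiles other than the exosome mutants 13 of 48 pairs rose and 0 fell, against backgrounds of 3% and 1.11%. In the exosome mutants 3 of 12 pairs rose and 0 fell, with 1.3% and 0.439% over all features. The calls of all 72 pairs, and those of the 6 genes in the planned contrasts between profiles, were the same at an unadjusted limma p under 0.05 with the same fold minimum. The median of the 6 genes was −1.66 in *rpb1-S2A* and −1.64 in *ctk1*Δ in YPD. In SC it was 0.87 in *rrp6*Δ, 0.78 in *ctk1*Δ and −0.08 in *set2*Δ, the highest, second highest and lowest of the 10 SC profiles, while the median over all features was between −0.0085 and 0.014 in each of the 12 profiles.

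**Figure D1:**
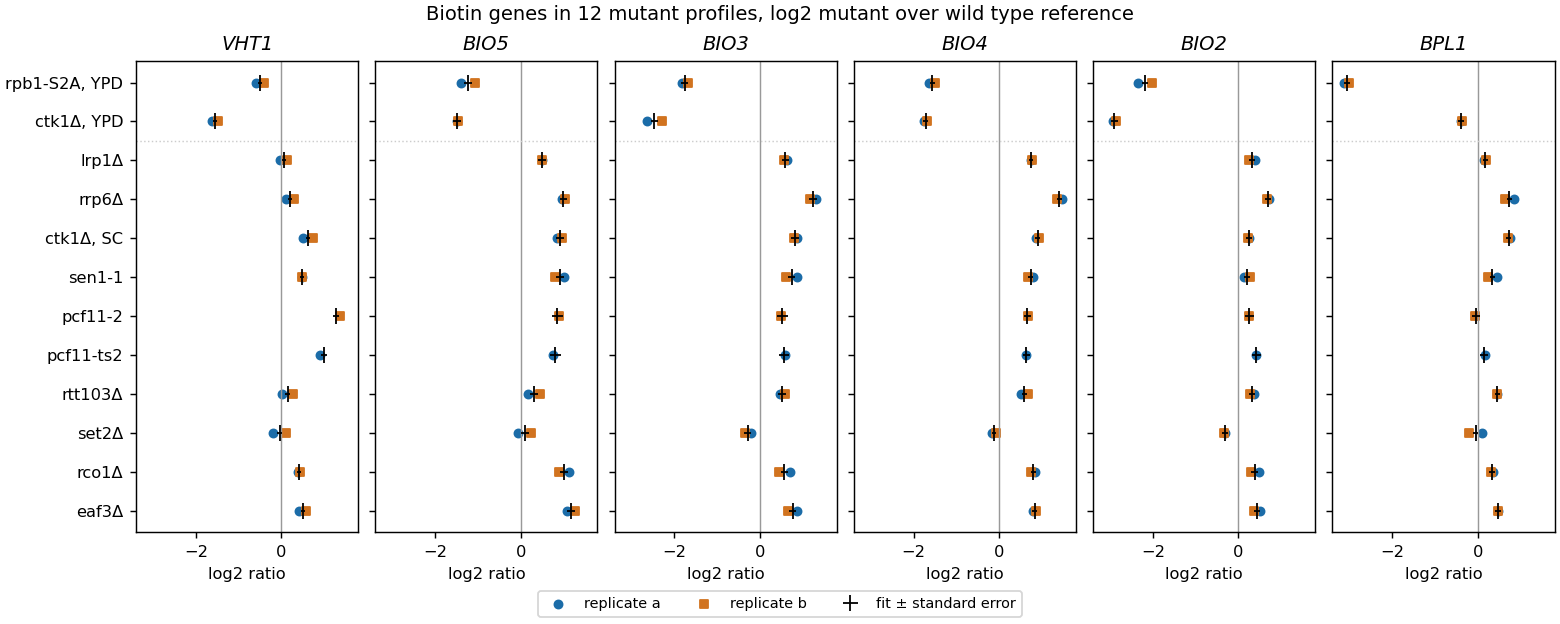
Log2 ratio of mutant over wild type reference (horizontal axis) of 6 biotin genes in 12 profiles (rows); circles are replicate a, squares replicate b and crosses the limma fit ± standard error. All YPD arrays (the top 2 rows) lie left of all SC arrays for every gene, and the *set2*Δ arrays lie near 0. The share of all features that separate by medium in this way was not counted.

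The rises in SC are ratios to the common reference, and the 9 SC profiles other than *set2*Δ had positive log2 ratios for *BIO2*, *BIO3*, *BIO4*, *BIO5* and *VHT1*, called or not. Such a shared level is removed when a gene is centred on its own median. With the median of a gene over its 12 profiles as 0 in place of the reference, 1 pair rose in place of 16, *VHT1* in *pcf11-2*. A property of the reference RNA and a response shared by these mutants cannot be told apart with these arrays.

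*VHT1*, the biotin symporter, fell in *ctk1*Δ in YPD, where 2.7% of all features fell, and rose in both *pcf11* alleles. Its log2 ratios in YPD were −0.60 and −0.41 in *rpb1-S2A* and −1.63 and −1.49 in *ctk1*Δ. Over the 18 SC arrays the lowest was −0.19, the median 0.41 and the highest 1.36, so the media did not overlap. The single *pcf11-2* array stood highest at 1.36, and the *pcf11-ts2* array followed at 0.92. The fitted ratios were 1.28 (standard error 0.07, adjusted p = 8.05e-08) and 1.00 (0.07, adjusted p = 1.45e-06), where 5.54% of all features rose in *pcf11-2* and 3.17% in *pcf11-ts2*. Each of these ratios rests on 1 array, whose error was taken from the pooled spread of all arrays.

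The other SC profiles of *VHT1* lay between 0.63 in *ctk1*Δ and −0.04 in *set2*Δ and passed no call. In the descending order of its 12 levels, *pcf11-2* and *pcf11-ts2* did not differ beyond their spread (difference 0.28, adjusted p = 0.211), and *pcf11-ts2* stood above *ctk1*Δ by 0.37 (adjusted p = 0.00849). Below these, *rco1*Δ and *rrp6*Δ differed by 0.21 (adjusted p = 0.0432), and *rpb1-S2A* stood 0.47 below *set2*Δ (adjusted p = 0.000194). Its place among the SC profiles was not that of the synthesis genes: *VHT1* ranked 1079 from the highest of 6373 features in *rrp6*Δ and 116 in *pcf11-ts2*, and *BIO4* ranked 24 and 277 in these profiles.

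*BIO5*, the vitamer transporter, rose in 7 of 12 profiles, more than any other of the 6 genes, and fell in both YPD profiles. On the YPD arrays it had −1.39 and −1.07 in *rpb1-S2A* and −1.49 and −1.48 in *ctk1*Δ. On the 18 SC arrays it had −0.05 at the lowest, 0.88 at the median and 1.28 at the highest. The media did not overlap, and 17 of 18 SC arrays were above 0. The signal of *BIO5* in the mutant channel of the YPD arrays was only 24.9 to 38.0 units over background, against 103 to 225 units for the reference on the same arrays. With a normexp offset of 0 in place of 50 the fitted ratio was −2.12 in place of −1.23 in *rpb1-S2A*, and −2.50 in place of −1.48 in *ctk1*Δ.

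The 7 rises of *BIO5* were in *rrp6*Δ, *ctk1*Δ in SC (where 7.28% of all features rose), *sen1-1* (5.21%), both *pcf11* alleles, *rco1*Δ and *eaf3*Δ. In *eaf3*Δ the arrays gave 1.08 and 1.28 and the fit 1.18 (standard error 0.09, adjusted p = 3.29e-06), which gave *BIO5* rank 10 from the highest of all features, of which 0.549% rose. In *rco1*Δ the arrays gave 1.14 and 0.89 and the fit 1.02 (adjusted p = 8.9e-06), with 0.769% of features rising. These 7 profiles followed each other from 1.18 to 0.81, and no neighbours among them differed beyond their spread. The next step that passed was from *set2*Δ down to *rpb1-S2A* (1.33, adjusted p = 3.83e-06). The rise in *sen1-1* (1.02 and 0.81) was lost without replicate a, where its value was 0.76. *BIO5* had 0.50 in *lrp1*Δ, 0.32 in *rtt103*Δ and 0.10 in *set2*Δ, none of which passed the call.

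The study names *BIO4* and *BIO5* among coding genes with readthrough, transcription past the end of a gene, in *ctk1*Δ. Its evidence is from tiling arrays and, for *BIO5*, northern blots. Whether readthrough has a part in the ratios given here was not tested. The only sequence of a biotin gene in the sources used here is the oligonucleotide with which the study probed *BIO5* on northern blots. It is shown to identify that probe, was not on these arrays, and has 26 bases.
BIO5 northern probe: ttaaacccaggtgtcaacactgctag

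*BIO3*, the aminotransferase, rose in 3 profiles and fell in both YPD profiles. In YPD it gave −1.83 and −1.69 in *rpb1-S2A* and −2.64 and −2.30 in *ctk1*Δ. The SC arrays ran from −0.36 through a median of 0.62 to 1.32. The *set2*Δ arrays (−0.21 and −0.36) were the 2 lowest and the *rrp6*Δ arrays (1.32 and 1.18) the 2 highest in SC. The fitted rise in *rrp6*Δ was 1.25 (standard error 0.09, adjusted p = 2.59e-07), where 1.63% of features rose. *BIO3* also rose in *ctk1*Δ in SC (arrays 0.86 and 0.79, fit 0.83) and in *eaf3*Δ (arrays 0.87 and 0.67, fit 0.77). The rise in *eaf3*Δ was lost without its replicate a (0.69).

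In the order of *BIO3* levels, *rrp6*Δ stood above *ctk1*Δ in SC by 0.42 (adjusted p = 0.012). The next 7 steps, down to *rtt103*Δ (0.52), did not pass. *rtt103*Δ stood above *set2*Δ by 0.81 (adjusted p = 0.000461), *set2*Δ above *rpb1-S2A* by 1.48 (adjusted p = 1.07e-06), and *rpb1-S2A* above *ctk1*Δ in YPD by 0.71 (adjusted p = 0.00208).

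*BIO4*, the dethiobiotin synthetase, rose in 4 profiles and fell in YPD, with −1.64 and −1.50 in *rpb1-S2A* and −1.76 and −1.68 in *ctk1*Δ. Its SC arrays gave −0.16 at the lowest, 0.76 at the median and 1.47 at the highest. The lowest 2 were again those of *set2*Δ and the highest 2 those of *rrp6*Δ (1.47 and 1.35), where the fit gave 1.41 (standard error 0.06, adjusted p = 9.8e-10). *BIO4* rose in *rrp6*Δ, *ctk1*Δ in SC (0.91), *eaf3*Δ (0.83) and *rco1*Δ (0.80), and the rise in *rco1*Δ was lost without its replicate a (0.73). In the order of *BIO4* levels, only the steps from *rrp6*Δ to *ctk1*Δ in SC (0.50, adjusted p = 0.0002), from *rtt103*Δ to *set2*Δ (0.71, adjusted p = 3.57e-05) and from *set2*Δ to *rpb1-S2A* (1.45, adjusted p = 2.92e-08) passed. The difference between the YPD profiles, 0.15, did not (adjusted p = 0.255).

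*BIO2*, biotin synthase, rose in 0 profiles, and of the 6 genes it fell furthest in *ctk1*Δ in YPD. It had −2.36 and −2.02 in *rpb1-S2A* and −2.94 and −2.86 in *ctk1*Δ, where it was the lowest of all 6373 features. The SC arrays lay between −0.33 and 0.72, with a median of 0.28. The 2 *set2*Δ arrays (−0.31 and −0.33) were the lowest in SC, and *sen1-1*, the next profile up, stood 0.53 above *set2*Δ (adjusted p = 0.00127). No other neighbours in SC differed beyond their spread, including *rrp6*Δ (0.70) and *eaf3*Δ (0.43). *rpb1-S2A* stood 1.87 below *set2*Δ (adjusted p = 3.28e-08).

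*BPL1*, the ligase, rose in 0 profiles and fell in 1, *rpb1-S2A*. There it had −3.12 and −3.01, a fitted ratio of −3.07 (standard error 0.07, adjusted p = 2.59e-12), rank 7 from the lowest of all features, of which 5.16% fell. In *ctk1*Δ in YPD it had −0.40 and −0.38, and over the SC arrays −0.20 at the lowest, 0.40 at the median and 0.85 at the highest. Both *rpb1-S2A* arrays were far below the other 20 arrays, with no overlap, and a normexp offset of 0 gave −3.73. The highest levels were those of *rrp6*Δ (0.74) and *ctk1*Δ in SC (0.73), which did not differ beyond their spread and were under the fold minimum. Without replicate b of *rrp6*Δ the value there was 0.83 and passed.

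The difference between media was tested in *ctk1*Δ, the 1 strain profiled in both. All 6 biotin genes fell in YPD relative to SC, where 1.22% of all features fell, and the median of the 6 differences was −2.51. The difference was −3.30 for *BIO3* (standard error 0.12, adjusted p = 2.36e-09), −3.14 for *BIO2* (0.10, adjusted p = 7.35e-10), −2.63 for *BIO4* (0.08, adjusted p = 6.45e-10) and −2.40 for *BIO5* (0.13, adjusted p = 8.67e-08). These genes held ranks 1, 2, 3 and 4 from the lowest of 6373 features, in this order. The size for *BIO5* moved with the background correction, to −3.52 with a normexp offset of 0, where *BIO3* was also at −3.52, *BIO2* at −3.41 and *BIO4* at −3.01. *VHT1* followed at −2.18 (0.07, adjusted p = 7.35e-10) at rank 6, and *BPL1* at −1.11 (0.09, adjusted p = 4.96e-06) at rank 28. The smallest difference was thus that of the ligase.

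**Figure D2:**
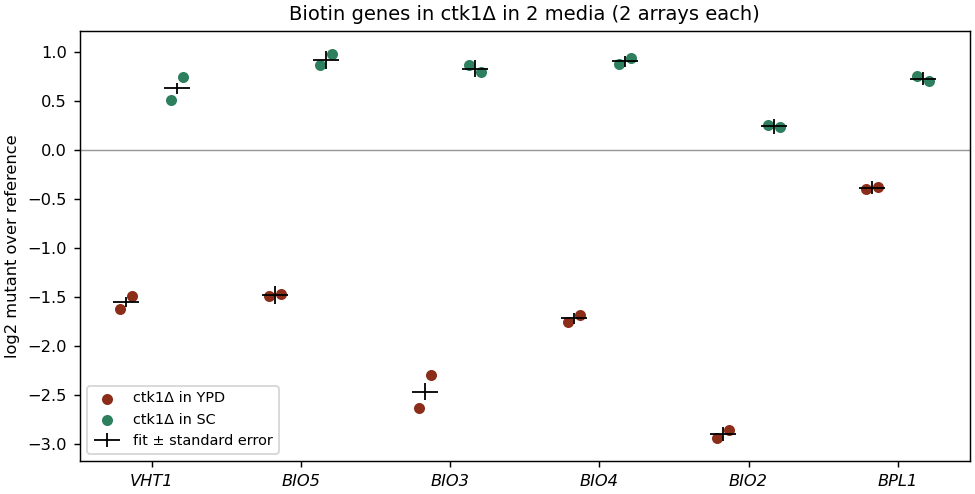
Log2 ratio of *ctk1*Δ over wild type reference (vertical axis) of 6 biotin genes in YPD (left points) and SC (right points), 1 point per array, with the limma fit ± standard error as crosses. All YPD points are below 0 and all SC points above it, and *BPL1* shows the smallest gap, 1.11.

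The RNA extraction changed together with the medium in *ctk1*Δ. The labels give the standard protocol for the mutant and the high-throughput one for the reference in YPD, and the opposite in SC, so medium and extraction cannot be told apart in that contrast. Replicate b of *rpb1-S2A* in YPD shares the high-throughput protocol in both channels, and the listed BY4741 background, with the arrays of *sen1-1*, *pcf11-2* and *pcf11-ts2* in SC. On it *BIO2* had −2.02, against 0.13 to 0.42 on those 4 SC arrays. *BIO3* had −1.69 there, against 0.50 to 0.86. Both genes were lower on this single array than on those 4 arrays. The mean of both YPD profiles minus the mean of all 10 SC profiles, a contrast chosen after the values were seen, gave −2.84 for *BIO2*, −2.72 for *BIO3*, −2.36 for *BIO4*, −2.12 for *BIO5*, −2.06 for *BPL1* and −1.50 for *VHT1*, all called where 1.63% of features fell.

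The YPD profiles differed from each other in *BPL1* and *VHT1*. *BPL1* was lower in *rpb1-S2A* than in *ctk1*Δ by 2.68 on the log2 scale (difference −2.68, standard error 0.09, adjusted p = 4.73e-10), rank 5 from the lowest of all features, of which 1.43% fell. *VHT1* was higher in *rpb1-S2A* by 1.05 (0.07, adjusted p = 9.41e-07), rank 18 from the highest, where 0.549% of features rose. *BIO3* and *BIO2* were each higher by 0.71, with adjusted p of 0.00208 and 0.000617 but a fold change under the minimum. They passed it without replicate a of *rpb1-S2A* (0.81 and 0.90), and *BIO3* also without replicate b of *ctk1*Δ (0.92). *BIO5* and *BIO4* had differences of 0.25 and 0.15 that did not pass. The listed strain backgrounds of *rpb1-S2A* and *ctk1*Δ differ (both had high *LYS2*), so background and mutation cannot be told apart in these values. Extraction of the mutant RNA was standard in *ctk1*Δ and in replicate a of *rpb1-S2A*, and high-throughput in its replicate b. Without replicate a, extraction therefore also differs between these mutants and cannot be told apart from the mutation.

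*BPL1* lies next to *RPO21* in the annotation, the gene of the largest subunit of RNA polymerase II, which carries the *rpb1-S2A* mutation. *RPO21* had −2.42 and −1.52 in *rpb1-S2A*, a fitted ratio of −1.97 that passed the call, against −0.25 and 0.10 in *ctk1*Δ in YPD. *CRD1*, the cardiolipin synthase gene on the other side of *BPL1*, had 0.16 and 0.10 in *rpb1-S2A*, and −0.10 and −0.02 in *ctk1*Δ in YPD. So *BPL1* and the mutated gene were both low in *rpb1-S2A*, and the gene on the other side was near 0. Whether the changed locus has a part in the level of *BPL1* was not tested. The other measured neighbours of the biotin genes, *HOL1*, *MNT4*, *ZUO1* and *SPT4*, passed no call in any profile. *HOL1* and *MNT4* flank the cluster of *BIO5*, *BIO4* and *BIO3*, and had −0.15 and 0.06 in *ctk1*Δ in YPD, where all 3 genes between them fell.

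**Figure D3:**
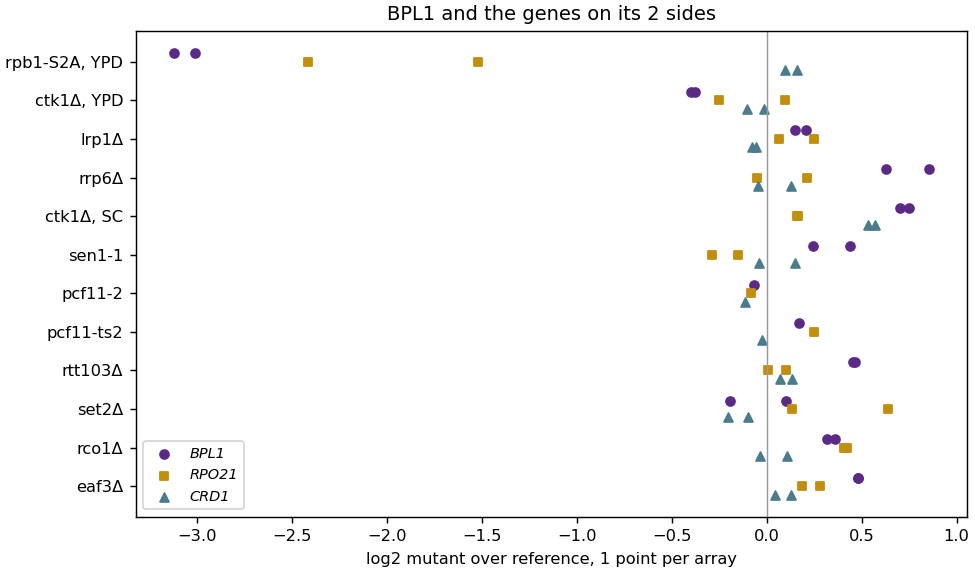
Log2 ratio of mutant over wild type reference (horizontal axis, 1 point per array) of *BPL1* (circles), *RPO21* (squares) and *CRD1* (triangles) in 12 profiles (rows). *BPL1* (−3.12 and −3.01) and *RPO21* (−2.42 and −1.52) are far left in *rpb1-S2A* alone, and *CRD1* is not.

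Within SC, *ctk1*Δ was compared with mutants against which the study sets it. Against *sen1-1*, 0 of 6 biotin genes passed the call, where 7.41% of all features did in either direction. The differences ran from 0.0041 for *BIO5* to 0.38 for *BPL1*, of which only that of *BPL1* had an adjusted p under 0.05 (0.00491). The extraction of the reference differed between *ctk1*Δ in SC and *sen1-1*, so the reference need not cancel in these differences. Their listed strain backgrounds differ too and cannot be told apart from the mutations. Against the mean of *set2*Δ, *rco1*Δ and *eaf3*Δ, again 0 of 6 passed, with 6.68% over all features. *BIO3* (0.47), *BPL1* (0.47), *BIO4* (0.40) and *VHT1* (0.33) had adjusted p under 0.05 below the fold minimum, and *BIO5* (0.16) and *BIO2* (0.08) did not. Of the profiles in that mean, *set2*Δ had another extraction of the mutant RNA than *ctk1*Δ. *LYS2* was at 3.13 in *ctk1*Δ in SC and at −0.05 to 0.06 in *set2*Δ, *rco1*Δ and *eaf3*Δ. Neither can be told apart from the mutations.

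That mean joins profiles that were unlike each other in the biotin genes. A contrast of *set2*Δ with the mean of *rco1*Δ and *eaf3*Δ was added after the values were seen. In it *BIO5* (−1.002, standard error 0.11, adjusted p = 0.0004), *BIO3* (−0.96, 0.11, adjusted p = 0.0004) and *BIO4* (−0.93, 0.07, adjusted p = 1.25e-05) fell, where 0.737% of features fell. *BIO2* (−0.73), *VHT1* (−0.50) and *BPL1* (−0.46) were also below 0 with adjusted p under 0.05 and a fold change under the minimum. The labels give standard extraction for the mutant RNA of *set2*Δ and the high-throughput one for *rco1*Δ and *eaf3*Δ, so extraction and mutation cannot be told apart here. The *rtt103*Δ, *rrp6*Δ and *lrp1*Δ arrays share the extraction of *set2*Δ in both channels, and their *BIO3* ratios were 0.46 to 1.32, against −0.21 and −0.36 in *set2*Δ. The lowest of these arrays and the higher *set2*Δ array had 0.51 and −0.08 for *BIO4*, and 0.26 and −0.31 for *BIO2*. For *BPL1* they were close, at 0.15 and 0.10, and for *BIO5* and *VHT1* the arrays overlapped. The share of all features that separate in this way was not counted, so these values are a description. *BIO5* had 0.25 in replicate b of *set2*Δ and 0.18 in replicate a of *rtt103*Δ. *VHT1* had 0.11 in replicate b of *set2*Δ and −0.03 in replicate a of *lrp1*Δ.

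Both exosome mutants had positive log2 ratios for all 6 genes. The mean of *lrp1*Δ and *rrp6*Δ minus the mean of the other 8 SC profiles passed for 0 of 6 genes, where 2.7% of all features passed. *BIO4* (0.45), *BIO3* (0.39), *BIO2* (0.27) and *BPL1* (0.16) were above 0 and *VHT1* (−0.42) below 0 with adjusted p under 0.05, and *BIO5* was at −0.012. The labels give standard extraction for the mutant RNA of both exosome mutants. Of the other 8 profiles only *rtt103*Δ and *set2*Δ share it. Reference extraction and listed background also differ in *sen1-1* and both *pcf11* alleles. These differences cannot be told apart from the exosome mutations in this contrast. The 3 rises were those of *BIO4*, *BIO3* and *BIO5* in *rrp6*Δ. In *lrp1*Δ these genes had 0.75 (a fold change of 1.68), 0.60 and 0.50, with adjusted p under 0.05 but a fold change under the minimum. *lrp1*Δ minus *rrp6*Δ passed for 0 of 6 genes, with 0.126% over all features. Its differences were −0.66 for *BIO4* (adjusted p = 0.00151), −0.65 for *BIO3* (0.0337) and −0.56 for *BPL1* (0.0134), all under the fold minimum. *BIO5* (−0.50), *BIO2* (−0.38) and *VHT1* (−0.15) had adjusted p over 0.05. From the lowest of all features, *BIO4* ranked 12, *BIO3* 14, *BPL1* 16, *BIO5* 23, *BIO2* 52 and *VHT1* 512.

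Of the 5 measured genes of biotin-carrying proteins, 0 fell in *rpb1-S2A* (5.16% of all features fell) and 0 in *ctk1*Δ in YPD (2.7%). At these shares, 0 falls among 5 genes do not set them apart from all features. In YPD 1 of them rose in *rpb1-S2A* (7.23% of all features rose) and 2 in *ctk1*Δ (6.79%). Of 6 listed, 5 were measured: the pyruvate carboxylases *PYC1* and *PYC2*, the cytosolic and mitochondrial acetyl-CoA carboxylases *ACC1* and *HFA1*, and *ARC1*. *PYC1* rose in 8 of 12 profiles, including *rpb1-S2A* (arrays 2.21 and 2.10) and *ctk1*Δ in YPD (arrays 1.06 and 1.57), and in *pcf11-2* at 2.29. *ACC1* rose in *ctk1*Δ in SC (0.83) and in *pcf11-2* (1.04) and *pcf11-ts2* (0.78), the alleles in which *VHT1* rose, and fell in *ctk1*Δ in YPD relative to SC (−0.88, adjusted p = 0.00221). *HFA1* rose in *ctk1*Δ in YPD (0.86) and in SC (0.89). *PYC2* and *ARC1* passed no call. *VHR1*, which encodes an activator of *VHT1* and *BIO5* at low biotin, rose in *ctk1*Δ in SC (0.91) and *rrp6*Δ (0.78), and had 0.45 in *rpb1-S2A* and 0.43 in *ctk1*Δ in YPD, where *BIO5* fell.

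Genes of the iron regulon moved the other way in YPD. In yeast, *VHT1* is a target of the iron regulator Aft1p, and *BIO2* encodes an iron-sulfur enzyme, so 20 iron uptake and iron saving genes were listed beside them. In the *rpb1-S2A* profile 13 of 20 rose and 0 fell, with a median of 1.23, where 7.23% of all features rose. In *ctk1*Δ in YPD 13 rose and 0 fell, with a median of 1.32, where 6.79% rose. The largest ratios were those of the cell wall mannoproteins *FIT3* (2.82) and *FIT2* (arrays 2.77 and 2.42) in *rpb1-S2A*, and of *FIT2* (3.19) and the ferric reductase *FRE2* (3.02) in *ctk1*Δ. In *ctk1*Δ in YPD relative to SC 11 of 20 rose and 0 fell, with a median difference of 0.80, where 1.52% of all features rose. *VHT1* and *BIO2* lay below the 20 genes in both YPD profiles, at −0.50 and −2.19 in *rpb1-S2A* and at −1.56 and −2.90 in *ctk1*Δ.

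In SC, *pcf11-2* was the profile with the most iron regulon genes called: 9 of 20 rose and 0 fell, with a median of 0.54, where 5.54% of all features rose, in the strain with the highest *VHT1* (1.28). In *pcf11-ts2*, where *VHT1* rose too, 0 of 20 passed, with a median of 0.19. In *lrp1*Δ 5 of 20 fell and 0 rose, where 0.282% of all features fell, with *VHT1* at 0.06. In *rrp6*Δ 4 fell and 0 rose, where 0.596% fell, with *VHT1* at 0.20. Whether iron has a part in any of these ratios was not tested.

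**Figure D4:**
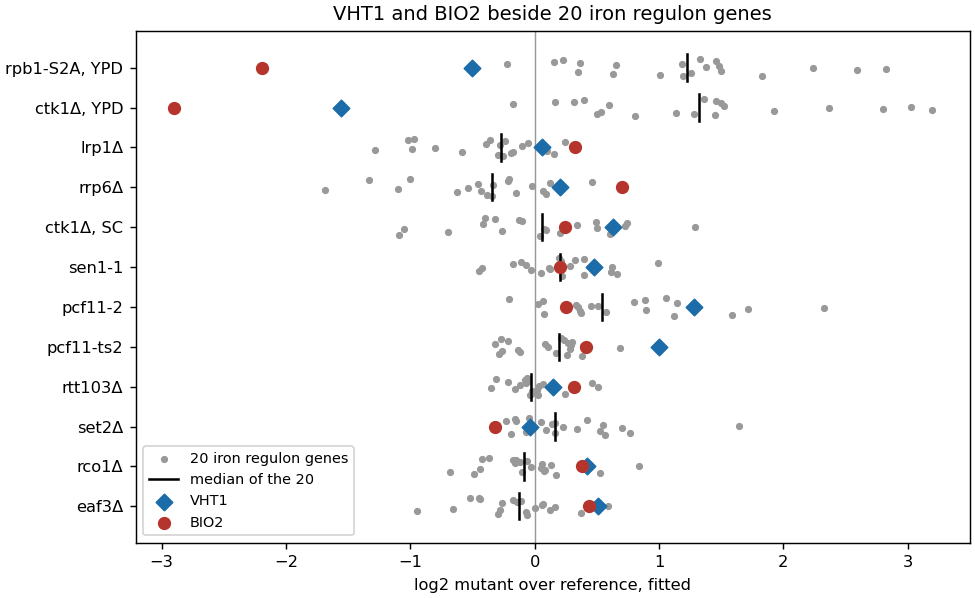
Fitted log2 ratio of mutant over wild type reference (horizontal axis) of *VHT1* (diamonds), *BIO2* (circles) and 20 iron regulon genes (small grey points, black line at their median) in 12 profiles (rows). In both YPD rows the medians of the 20 genes are at 1.23 and 1.32, while *VHT1* and *BIO2* are below 0.

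Across the 12 profiles, the synthesis genes and *BIO5* had similar patterns. The Pearson correlation between pairs of *BIO5*, *BIO3*, *BIO4* and *BIO2* was 0.963 to 0.993, that of *VHT1* with them 0.787 to 0.858, and that of *BPL1* with the other 5 genes 0.430 to 0.786. The profiles share a common wild type reference and the YPD profiles are far from the rest, so these values describe the pattern and carry no test. Over the 10 SC profiles alone, *BIO3* and *BIO4* were still at 0.984, *BIO4* and *BIO2* at 0.917 and *BIO5* and *BIO3* at 0.755, whereas *VHT1* and *BIO3* were at 0.187.

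The named genes most like each biotin gene over 12 profiles were also found. *MET13*, of methionine synthesis, was first for *BIO2* (r = 0.950), *BIO4* (0.938) and *BIO3* (0.937), *UBP1*, a ubiquitin protease, for *BIO5* (0.924), *GLN3*, an activator of nitrogen genes, for *VHT1* (0.906) and *RPO21* for *BPL1* (0.911). *ILV1*, of isoleucine synthesis, was among the first 3 for *BIO2*, *BIO3* and *BIO5*, and *TRP4*, of tryptophan synthesis, for *BIO3* and *BIO4*. The likeness of these pairs was lower within SC, to an unequal degree. Over the 10 SC profiles *MET13* had 0.460 with *BIO2* and *UBP1* had 0.236 with *BIO5*, while *GLN3* had 0.716 with *VHT1*. *ACC1* and *VHT1* were not lower within SC, with 0.879 over 12 profiles and 0.922 over the SC profiles. *RPO21* and *BPL1* had 0.150 without *rpb1-S2A*.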

How the data were processed

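RNA of 12 *S. cerevisiae* profiles was measured on 22 two-colour oligonucleotide arrays. For every spot the authors deposited foreground and background intensity from the scanner, and also normalized log2 ratios. For the ratios, the processing notes of the submitters name limma, with version 2.12.0 on 6 arrays and no version on 16. In 6 of these columns the ratio ran as reference over mutant, by comparison with the scanner values, and was turned; column medians were −0.00805 to 0.0194. Mean spot intensities were corrected with normexp (offset 50) and loess in limma 3.58.1 (R 4.3.3), turned to mutant over reference and averaged over the 2 spots of a probe. Of 6388 probes 5326 had 1 symbol, 0 several and 1062 none; symbols were updated (58) and neighbouring genes found with the gene table of assembly R64. The build of the array design is not given in the sources used here.

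A model with 1 coefficient for each profile and a dye term for each gene was fitted over all arrays (residual degrees of freedom 9, prior 3.7). Replicate letter and dye are the same split, so the dye term is also the replicate block. Single-array profiles borrow the pooled spread. The methods of the study name separate cultures for the arrays of a mutant, and the labels do not, so p-values may measure technical spread. Replicate arrays had Pearson correlations of 0.529 (*set2*Δ) to 0.967 (*ctk1*Δ in SC) across features. The fit was tested on simulated data. Figures were drawn with matplotlib 3.10.9.

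The genes and lists were chosen with earlier results of these data known. Named beside them were the listed biotin-carrying, regulator and iron genes (*DUR1,2* and *VHR2* were not matched), neighbouring genes, the 3 most alike genes, and strain markers. Alternatives covered background, normalization, the authors' log2 ratios, the block, filters, centring and leaving out arrays.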

Additional observations from a re-analysis of the deposited data

Results flagged for a closer look

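The levels of the 6 biotin genes in *ctk1*Δ differed between media, by the limma contrast of *ctk1*Δ in YPD minus *ctk1*Δ in SC. No wild type in YPD was analysed here, so this is not a test of a change in the effect of the deletion. The log2 difference was −2.18 for *VHT1*, −2.40 for *BIO5*, −3.30 for *BIO3*, −2.63 for *BIO4*, −3.14 for *BIO2* and −1.11 for *BPL1*. The adjusted p was 4.96e-06 or less for each gene, where 1.22% of all features fell. RNA extraction differed with the medium in this contrast and cannot be told apart from it.

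Between the YPD mutants, *rpb1-S2A* minus *ctk1*Δ differed by 1.05 for *VHT1* and by −2.68 for *BPL1*, where 0.549% of all features rose and 1.43% fell. Their listed strain backgrounds differ and cannot be told apart from the mutations. The extraction of the mutant RNA also differed in replicate b of *rpb1-S2A*.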

How the results depend on the processing

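Of 1254 values under settings other than leaving out 1 array, 1176 kept their direction and their side of the call. The counts of biotin genes that rose (16) and fell (10) in the 12 profiles, and the 6 that fell in *ctk1*Δ in YPD relative to SC, were the same without background correction and without the replicate block, where all 108 values kept their call (16 rose and 10 fell without the block). Centring each gene on the median of its 12 profiles left 1 rise in place of 16, turned *BIO5* in *pcf11-ts2* to −0.025, and added *BIO3* (−0.85) and *BIO4* (−0.82) in *set2*Δ and *VHT1* (−0.81) in *rpb1-S2A* as lower. Without the fold minimum 48 pairs rose, and the genes passing numbered 4 in *rpb1-S2A* minus *ctk1*Δ in YPD (2 with it), 1 in *ctk1*Δ minus *sen1-1*, 4 in *ctk1*Δ minus the mean of *set2*Δ, *rco1*Δ and *eaf3*Δ, 5 in the exosome contrast and 3 in *lrp1*Δ minus *rrp6*Δ (0 with it in each).

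*rpb1-S2A* minus *ctk1*Δ in YPD also gave 4 genes with a normexp offset of 0 and with median normalization, where *BIO3* and *BIO2* passed, and 2 to 4 when 1 array was left out. Leaving out 1 array changed 9 of 2352 values, and the rises then numbered 15 to 18. With the log2 ratios the authors deposited, *BIO5* in *pcf11-ts2* (0.76) and *BIO4* in *rco1*Δ (0.75) were under the fold minimum, and *BIO3* (0.79) and *BIO4* (0.81) in *sen1-1* over it. The offset of 0 also moved *BIO5* in *ctk1*Δ in YPD minus SC to −3.52 (−2.40 with 50). Beyond the rule for calls, the causes of these changes were not tested.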
